A study of Mus musculus with 19 samples.

Results

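The 40 genes described here encode the checkpoint kinases, break sensors, homologous recombination factors, Fanconi anemia proteins, helicases and lesion recognition factors that somatic cells use to detect and repair DNA damage. They were picked by a list of symbols out of 22419 protein-coding genes in the expression tables. RNA-seq gave their expression in sorted preleptotene spermatocytes, the germ cells that replicate their DNA for the last time before meiosis, and STRA8 binding by FLAG ChIP-seq in whole testes. Spermatogenesis in all C57BL/6 males was synchronized with WIN18,446, which blocks retinoic acid synthesis, from postnatal day 2 to 8 and with retinoic acid on day 9, and testes were collected 6.75 days later.

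The 3 Stra8-deficient libraries came from cells homozygous for a Stra8-deficient allele, and the 2 low-STRA8 and 2 high-STRA8 libraries from Stra8 heterozygous cells of testes that stained weakly or strongly for STRA8 protein. Every mouse used for RNA-seq also carried 1 copy of Ddx4 Cre, which is active in germ cells, and 1 copy of the Rosa26 tdTomato reporter by which germ cells were sorted. For ChIP-seq, 3 Stra8 FLAG/FLAG mice, homozygous for a FLAG tag on the longer STRA8 isoform, were compared with 3 wild-type mice, both on C57BL/6 with under 4% 129, and these testes were not sorted. The study placed the low-STRA8 cells early in the preleptotene stage, before meiotic initiation. It placed the high-STRA8 cells in the middle or late part of that stage, after initiation. The deficient cells differ from both in genotype and were not treated as an earlier stage of them. Genotype and position within the preleptotene stage cannot be told apart in comparisons with them. Below, "deficient" stands for Stra8-deficient, and words such as rise, fall and step stand for differences between groups.

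A DNA break is sensed by the MRE11-RAD50-NBN complex, which activates the kinase ATM, whereas single-stranded DNA coated with the RPA complex recruits ATR through its partner ATRIP. ATM and ATR signal to the effector kinases CHEK2 and CHEK1, and the scaffold MDC1 with the ubiquitin ligases RNF8 and RNF168 spreads the signal over chromatin. BRCA1-BARD1, PALB2 and the BCDX2 and CX3 complexes promote homologous recombination, and the Fanconi core complex ubiquitinates FANCD2-FANCI to start the repair of DNA crosslinks. Several of these proteins act both at replication forks and on the programmed breaks of meiotic prophase.

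Estimated counts summed to between 25049625 and 30015072 per RNA library. Stra8 itself, the targeted gene, measured between 5.16 and 22.8 TPM in the deficient libraries. It measured 315 and 236 TPM in the low-STRA8 and 1099 and 1248 TPM in the high-STRA8 libraries, so no library went against its label. The marker sums that follow are given lowest first within each group, not in the order of the replicates. The summed level of 6 germ cell markers moved with the groups, being 4181 to 5780 TPM in deficient, 3452 and 3744 TPM in low-STRA8 and 6706 and 7931 TPM in high-STRA8 libraries, and of these markers Dnd1 was lowest in the high-STRA8 libraries, at 16.1 and 13.7 TPM. Markers of other cells also varied: 6 Sertoli cell markers summed to 139 to 195 TPM in deficient, 60.2 and 295 TPM in low-STRA8 and 212 and 215 TPM in high-STRA8 libraries, 6 macrophage and blood markers to 7.57 to 17.8, 41.2 and 45.8, and 1.45 and 7.25 TPM, and 6 markers of undifferentiated spermatogonia to 21.2 to 22.6, 5.92 and 8.19, and 8.32 and 8.91 TPM. In the same order, 5 Leydig cell markers summed to 9.54 to 12.5, 3.45 and 18.9, and 3.72 and 5.46 TPM, 5 peritubular and endothelial markers to 28.2 to 45.7, 12.7 and 41.2, and 8.44 and 25.4 TPM, and 6 markers of pachytene and later germ cells to 2.86 to 4.78, 1.84 and 2.27, and 1.58 and 2.75 TPM. Whether these cells contributed to any value below was not tested, and in sorted populations fewer cells of a type and less RNA per cell cannot be told apart. Zbtb16 was the largest part of the undifferentiated spermatogonia sum, at 16.7 to 20.6 TPM in deficient and 3.65 to 5.34 TPM in other libraries. Id4 was instead higher in high-STRA8 (2.12 and 1.92 TPM) than in deficient libraries (0.679 to 1.23 TPM). Hbb-bs and Hba-a1 made up most of the low-STRA8 macrophage and blood sum. Of the low-STRA8 libraries, replicate 1 had the larger sum for every marker list except that one. Ptprc, Csf1r, Adgre1 and Cd68 were highest in deficient replicate 3. Among germ cell markers, Mael was highest in low-STRA8 libraries. The labels do not say which libraries share animals, so that p-values measure the spread between these libraries.

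To see which repair genes differed in level at meiotic initiation, high-STRA8 cells were compared with deficient cells. Of the 40 genes, 39 passed the filter of 1 TPM in at least 1 library and 24 were higher in high-STRA8 cells by edgeR's quasi-likelihood test at an adjusted p under 0.05, which is 61.5% of those tested beside 18.8% of all 12510 genes tested. Only Chek2 was lower, 2.56% beside 18.2% of all genes. The log2 fold change had a median of 0.59 over the 39 genes and of -0.02 over all genes, and 35 of the 39 lay above 0. The gene left out, Fancb of the Fanconi core, measured 0.129 to 0.433 TPM.

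High-STRA8 cells were next compared with low-STRA8 cells, which share their genotype, and low-STRA8 cells with deficient cells. These 3 comparisons share libraries and are therefore not independent of each other. Against low-STRA8 cells, 23 of the 39 genes were higher (59.0%, beside 21.3% of all genes) and 2, Chek2 and Xrcc2, were lower (5.13%, beside 18.3%), with a median log2 fold change of 0.60 beside 0.01 over all genes. Low-STRA8 cells held 11 of the genes at a higher level than deficient cells (28.2%, beside 10.1%) and 4, Rad50, Trp53bp1, Fancm and Slx4, at a lower one (10.3%, beside 13.9%), with a median of 0.04 beside 0.03. This last split depended on the scaling, since limma on log2(TPM + 1) gave 5 higher and 7 lower while the median of all genes moved to -0.15 (log2). The genes were already expressed without Stra8: their median level was 32.0 TPM in deficient, 30.2 TPM in low-STRA8 and 41.7 TPM in high-STRA8 cells, beside 26.4, 22.2 and 24.98 TPM over all genes tested.

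**Figure D1:**
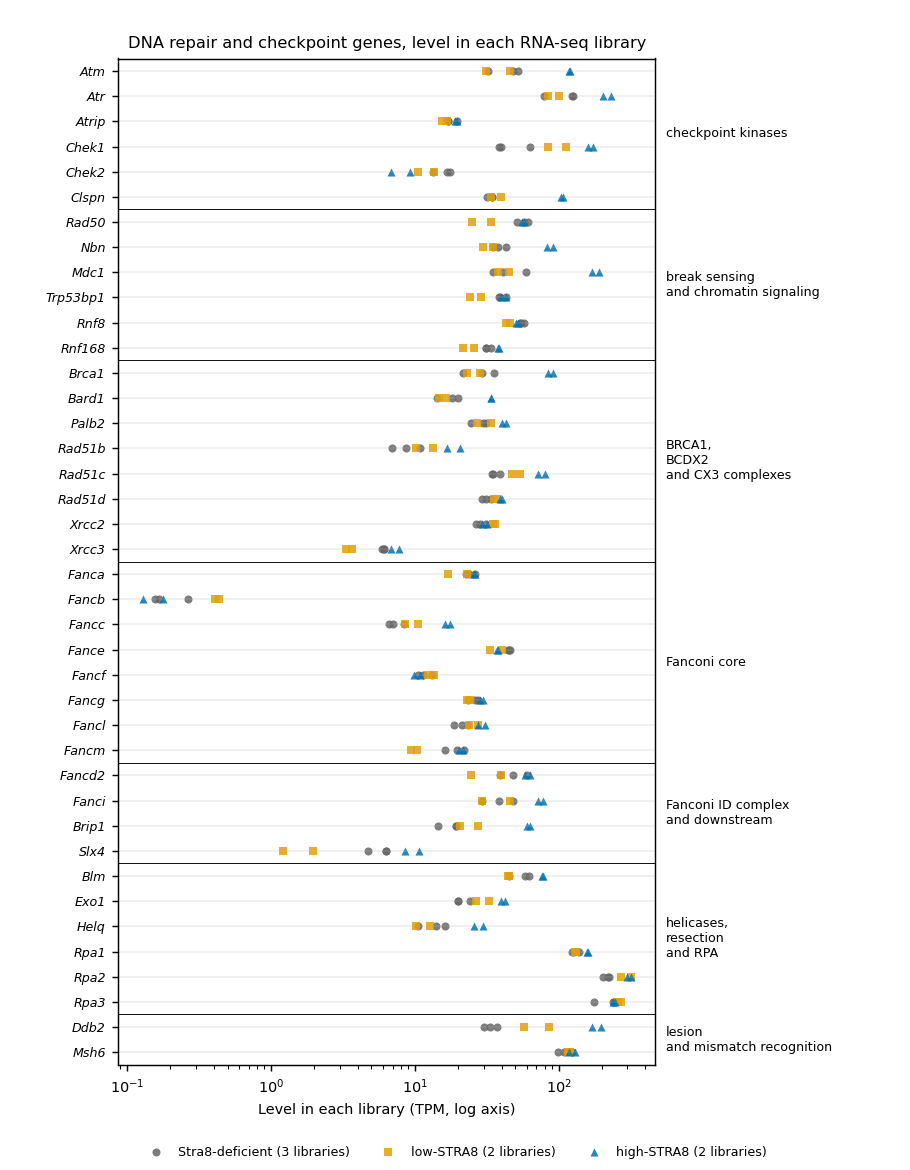
Level of each of the 40 genes in each of the 7 RNA-seq libraries, in TPM on a log axis, with 1 symbol per library and genes ordered by role. High-STRA8 libraries lie to the right of all others for Atm, Atr, Chek1, Clspn, Mdc1, Brca1, Brip1 and Ddb2, and low-STRA8 libraries lie to the left of all others for Rad50, Trp53bp1, Fancm and Slx4.

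By their calls in all 3 comparisons, the 39 genes fell into a few patterns. The most frequent, in 10 genes (Atm, Atr, Nbn, Mdc1, Rnf168, Brca1, Bard1, Fanci, Blm and Helq), was a higher level in high-STRA8 cells than in both other groups with no call between low-STRA8 and deficient cells (25.6% of the 39, beside 8.17% of all genes tested). A further 7 genes shared another pattern, namely Chek1, Clspn, Rad51c, Fancc, Brip1, Exo1 and Ddb2. These were called higher in low-STRA8 than in deficient cells and in high-STRA8 than in low-STRA8 cells (17.9%, beside 2.43%). Of these 7, only Ddb2 kept both steps next to low-STRA8 cells under every alternative described below. The low-STRA8 step over deficient cells was lost under at least 1 alternative for Clspn, Fancc and, without low-STRA8 replicate 1, Brip1. The step from low- to high-STRA8 cells was lost under at least 1 for Chek1, Rad51c, Exo1 and Fancc. Both steps of Fancc were lost without 1 of several libraries. Rad51d, Fancl and Rpa2 were higher than in deficient cells in both heterozygous groups, with no call between those groups, although the low-STRA8 calls of Rad51d and Fancl were each lost without any of 6 libraries. Palb2, Rad51b and Rpa1 were called only between high-STRA8 and deficient cells, and Xrcc3 and Fancd2 only between high-STRA8 and low-STRA8 cells. Rad50, Trp53bp1 and Fancm were lower in low-STRA8 cells than in both others with no call between those, Slx4 was lowest in low-STRA8 and highest in high-STRA8 cells, Xrcc2 was highest in low-STRA8 cells, and Chek2 was lowest in high-STRA8 cells. The shares given for these patterns rest on the same calls as the counts above. The other 8 genes (20.5%, beside 43.3%), Atrip, Rnf8, Fanca, Fance, Fancf, Fancg, Rpa3 and Msh6, passed the threshold in no comparison.

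**Figure D2:**
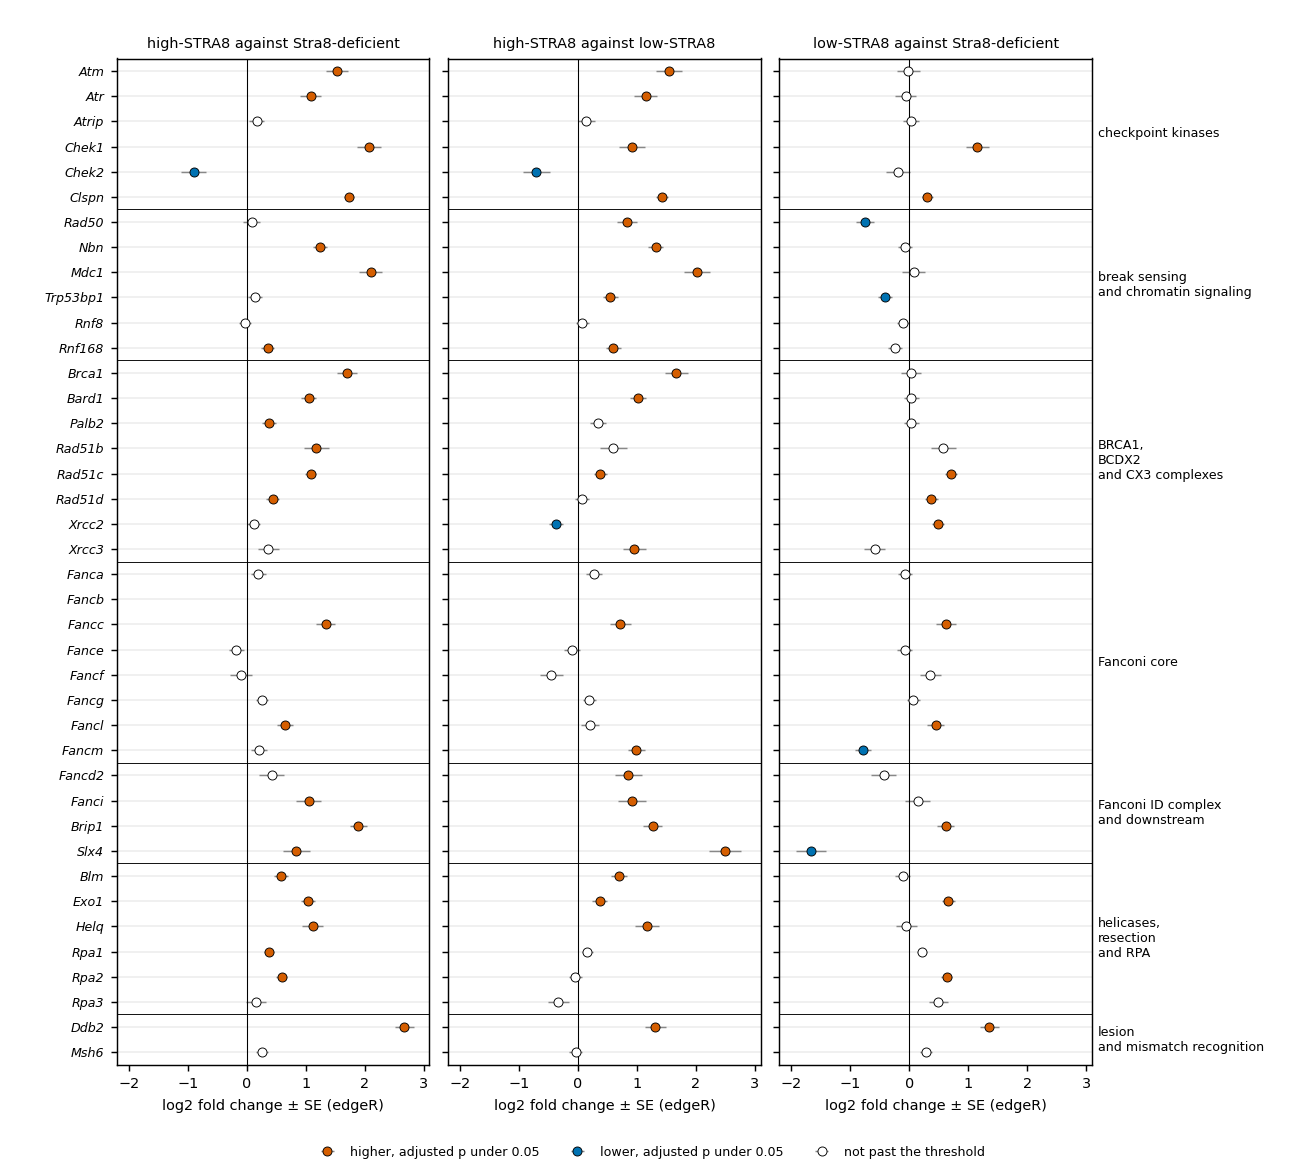
Log2 fold change with its SE, from edgeR, for each of the 39 genes tested in the 3 comparisons. Filled points passed an adjusted p of 0.05: 24 rose and 1 fell between high-STRA8 and deficient cells, 23 rose and 2 fell between high- and low-STRA8 cells, and 11 rose and 4 fell between low-STRA8 and deficient cells.

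Among the checkpoint kinases and their partners, 4 of 6 rose between deficient and high-STRA8 cells, beside 18.8% of all genes tested. The effector kinases went in opposite directions. Clspn, the adaptor through which ATR activates CHEK1, measured 34.6, 34.4 and 31.9 TPM in deficient, 39.9 and 33.6 TPM in low-STRA8 and 104 and 106 TPM in high-STRA8 libraries. Its high-STRA8 libraries lay far above the other 5, with a log2 fold change over deficient cells of 1.74 ± 0.09 (SE, edgeR adjusted p = 5.12e-05) and over low-STRA8 cells of 1.43 ± 0.10 (adjusted p = 0.00042). The call between low-STRA8 and deficient cells (0.31 ± 0.09, adjusted p = 0.0389) is weak, since the TPM of those groups overlap and leaving out any of 6 libraries ended it. Chek1, the effector of ATR, measured 39.8, 62.7 and 38.4 TPM in deficient, 112 and 84.05 TPM in low-STRA8 and 172 and 160.3 TPM in high-STRA8 libraries. The 3 groups did not overlap, and Chek1 rose by 1.15 ± 0.20 (log2) from deficient to low-STRA8 cells (adjusted p = 0.00622) and by 0.92 ± 0.22 from low- to high-STRA8 cells (adjusted p = 0.0121), the latter call being lost without low-STRA8 replicate 2 (0.75, adjusted p = 0.0583) or either high-STRA8 library. Atm measured 52.2, 48.0 and 32.1 TPM in deficient, 45.5 and 31.4 TPM in low-STRA8 and 119 and 119.8 TPM in high-STRA8 libraries. Its rise of 1.53 ± 0.19 over deficient cells (adjusted p = 0.000649) was accompanied by no call between low-STRA8 and deficient cells, whose libraries overlapped.

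Chek2, the effector of ATM, measured 17.5, 16.7 and 13.3 TPM in deficient, 10.6 and 13.5 TPM in low-STRA8 and 6.88 and 9.19 TPM in high-STRA8 libraries. Both high-STRA8 libraries were below all others, and the gene fell by 0.90 on the log2 scale against deficient cells (SE 0.21, edgeR adjusted p = 0.0114) and by 0.71 against low-STRA8 cells (SE 0.23, adjusted p = 0.038). Without high-STRA8 replicate 1 the first of these calls was lost (adjusted p = 0.117), and the second was lost without any of 5 libraries. Atr rose by 1.09 ± 0.18 over deficient cells (adjusted p = 0.00212), whereas its partner Atrip differed by 0.17 ± 0.13 (adjusted p = 0.355), with high-STRA8 libraries at 19.6 and 18.96 TPM inside the range of the deficient libraries, 16.9 to 19.6 TPM.

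Among the break sensors and chromatin signaling factors, Mdc1 had the largest rise, Nbn and Rnf168 also rose, and Rad50, Trp53bp1 and Rnf8 did not pass the threshold between high-STRA8 and deficient cells. Mdc1, the scaffold that binds phosphorylated histone H2AX beside breaks, measured 40.8, 59.3 and 35.0 TPM in deficient, 45.4 and 37.8 TPM in low-STRA8 and 171 and 189 TPM in high-STRA8 libraries. The high-STRA8 libraries stood well clear of the other 5, which overlapped, and the rise was 4.29-fold over deficient (log2 SE 0.19, edgeR adjusted p = 0.000166) and 4.07-fold over low-STRA8 cells (log2 SE 0.22, adjusted p = 0.000826). Nbn, the subunit of the MRE11 complex that recruits ATM, measured 37.9, 43.2 and 34.7 TPM in deficient, 34.9 and 29.5 TPM in low-STRA8 and 82.8 and 90.7 TPM in high-STRA8 libraries (1.24 ± 0.12 over deficient, adjusted p = 0.000169). Rnf168, which ubiquitinates histone H2A, measured 33.6, 31.0 and 31.3 TPM, then 21.7 and 25.6 TPM, then 37.9 and 38.1 TPM in the same order of groups. Its rise over deficient cells was small (0.36 ± 0.11, adjusted p = 0.0383) and was lost without any 1 of the 5 libraries compared (adjusted p of 0.0569 to 0.211). Its rise over low-STRA8 cells, 0.60 ± 0.13 (adjusted p = 0.00759), was lost without high-STRA8 replicate 2 (adjusted p = 0.0648).

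Rad50 behaved unlike its partner Nbn. The ATPase subunit of the MRE11 complex measured 61.1, 57.6 and 51.0 TPM in deficient, 24.98 and 33.9 TPM in low-STRA8 and 55.2 and 57.7 TPM in high-STRA8 libraries. Only the low-STRA8 libraries stood apart, with a log2 fold change of -0.75 ± 0.15 against deficient cells (edgeR adjusted p = 0.0109) and with high-STRA8 cells 0.83 ± 0.16 above them (adjusted p = 0.00552). Trp53bp1, whose product protects broken ends from resection, followed the same order with smaller differences, -0.41 ± 0.12 (adjusted p = 0.0408) and 0.55 ± 0.13 (adjusted p = 0.0123). Leaving out any 1 of the 7 libraries other than low-STRA8 replicate 2 ended its first call, and without high-STRA8 replicate 2 the second was lost too (adjusted p = 0.0976).

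Among the BRCA1, BCDX2 and CX3 complexes, 6 of 8 rose between deficient and high-STRA8 cells and none fell. Of all genes tested 18.8% rose and 18.2% fell there. Brca1, which directs resected breaks into homologous recombination, measured 29.4, 35.3 and 21.7 TPM in deficient, 28.6 and 23.1 TPM in low-STRA8 and 84.2 and 90.5 TPM in high-STRA8 libraries. Bard1, its obligate partner, measured 19.8, 18.1 and 14.3 TPM, 16.3 and 14.8 TPM, and 33.9 and 33.7 TPM. Both genes separated high-STRA8 from all other libraries, Brca1 by 1.70 ± 0.17 (edgeR adjusted p = 0.000243) and Bard1 by 1.05 ± 0.12 (adjusted p = 0.000492) over deficient cells, and low-STRA8 overlapped deficient libraries for both. Palb2, the bridge from BRCA1 to BRCA2, rose less (0.38 ± 0.13, adjusted p = 0.0453), and that call was lost without either high-STRA8 library and without deficient replicate 1 or 3.

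RAD51B, RAD51C, RAD51D and XRCC2 form the BCDX2 complex and RAD51C and XRCC3 the CX3 complex, and their genes did not move together. Rad51c measured 39.0, 34.5 and 34.8 TPM in deficient, 53.8 and 47.2 TPM in low-STRA8 and 71.4 and 79.9 TPM in high-STRA8 libraries, without overlap between groups. It rose by 0.71 ± 0.10 (log2) from deficient to low-STRA8 cells (edgeR adjusted p = 0.00295) and by 1.08 ± 0.10 from deficient to high-STRA8 cells (adjusted p = 0.000149), while the step from low to high (0.38 ± 0.11, adjusted p = 0.0239) was lost without low-STRA8 replicate 2 or either high-STRA8 library. Rad51b rose 2.27-fold (log2 SE 0.21, adjusted p = 0.00297) and Rad51d by 0.44 ± 0.11 (log2, adjusted p = 0.0154) between deficient and high-STRA8 cells, the Rad51d call being lost without either high-STRA8 library. Xrcc2 was 0.49 ± 0.11 higher in low-STRA8 than in deficient cells (adjusted p = 0.014) and 0.37 lower in high- than in low-STRA8 cells (log2 fold change -0.37 ± 0.12, adjusted p = 0.0345). Without low-STRA8 replicate 2 both Xrcc2 calls were lost (adjusted p = 0.0535 and 0.129), as was the second without either high-STRA8 library. Xrcc3, at 3.35 and 3.65 TPM in low-STRA8 and 7.81 and 6.88 TPM in high-STRA8 libraries, differed between those groups by 0.96 ± 0.20 (adjusted p = 0.00726), a call lost without high-STRA8 replicate 1 (adjusted p = 0.0708).

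The Fanconi core was the role group with the smallest share of calls between deficient and high-STRA8 cells. Of its 7 genes tested 2 rose there, where 18.8% of all genes tested rose. Fancc measured 6.65, 8.44 and 7.05 TPM in deficient, 10.5 and 8.53 TPM in low-STRA8 and 16.3 and 17.6 TPM in high-STRA8 libraries, a rise of 1.34 ± 0.16 (edgeR adjusted p = 0.000556). Fancl, the ubiquitin ligase subunit of the complex, measured 18.8, 23.5 and 21.3 TPM, 27.6 and 23.97 TPM, and 30.7 and 27.4 TPM, a rise of 0.65 ± 0.14 (adjusted p = 0.00681) that was lost without either high-STRA8 library (adjusted p = 0.0678 and 0.0685). For both genes every heterozygous library lay above every deficient library. Fancg, a scaffold subunit, measured 26.1, 27.6 and 23.5 TPM, 24.3 and 22.9 TPM, and 29.6 and 28.3 TPM, and its difference of 0.27 ± 0.10 did not pass the threshold (adjusted p = 0.0748). Fanca, Fance and Fancf differed by -0.18 to 0.20 on the log2 scale without a call.

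Fancm, the DNA translocase that anchors the core complex to chromatin, gave the pattern of Rad50, with 22.1, 19.7 and 16.3 TPM in deficient, 9.38 and 10.3 TPM in low-STRA8 and 20.3 and 21.6 TPM in high-STRA8 libraries. Low-STRA8 cells were lower than deficient cells by a log2 fold change of -0.79 ± 0.14 (edgeR adjusted p = 0.00622), and high-STRA8 cells were 0.99 ± 0.15 above low-STRA8 cells (adjusted p = 0.00197). Both low-STRA8 libraries were below the other 5.

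Downstream of the core, Brip1, Fanci and Slx4 rose between deficient and high-STRA8 cells (18.8% of all genes tested did). All 4 genes of this group rose between low- and high-STRA8 cells (21.3% of all genes tested did). Brip1, the helicase that binds BRCA1, measured 19.4, 19.3 and 14.5 TPM in deficient, 27.7 and 20.5 TPM in low-STRA8 and 63.2 and 60.2 TPM in high-STRA8 libraries. Its groups did not overlap, with a rise over deficient cells of 1.89 ± 0.14 (edgeR adjusted p = 8.14e-05). Fanci measured 38.2, 48.3 and 29.2 TPM, 46.2 and 29.1 TPM, and 72.1 and 78.3 TPM, a rise of 1.05 ± 0.21 (adjusted p = 0.00545, or 0.0538 without high-STRA8 replicate 2). Its partner Fancd2 differed by 0.42 ± 0.21 in the same comparison, which did not pass the threshold (adjusted p = 0.146), and by 0.85 ± 0.23 between high- and low-STRA8 cells (adjusted p = 0.0198). The Fanci and Fancd2 calls between high- and low-STRA8 cells were both lost without low-STRA8 replicate 2 or either high-STRA8 library.

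Slx4, the scaffold of the structure-specific nucleases that unhook crosslinks and resolve junctions, differed most between high- and low-STRA8 cells. It measured 6.32, 6.30 and 4.74 TPM in deficient, 1.22 and 1.96 TPM in low-STRA8 and 8.57 and 10.7 TPM in high-STRA8 libraries, with no overlap. High-STRA8 cells were 2.50 ± 0.27 (log2) above low-STRA8 cells (edgeR adjusted p = 0.000826), low-STRA8 cells had a log2 fold change of -1.66 ± 0.25 against deficient cells (adjusted p = 0.0042), and high-STRA8 cells were 0.84 ± 0.23 above deficient cells (adjusted p = 0.0205). The last call was lost without deficient replicate 3 (adjusted p = 0.0734) or high-STRA8 replicate 2 (adjusted p = 0.179).

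Of the helicase, resection and RPA genes, 5 of 6 rose between deficient and high-STRA8 cells, beside 18.8% of all genes tested. Exo1, the exonuclease that extends resection, measured 19.9, 23.99 and 19.8 TPM in deficient, 32.5 and 26.8 TPM in low-STRA8 and 42.3 and 39.6 TPM in high-STRA8 libraries, and Helq, a helicase that binds the BCDX2 complex, 13.97, 16.3 and 10.5 TPM, 12.7 and 10.1 TPM, and 25.7 and 29.7 TPM. Exo1 was also higher in low-STRA8 than in deficient cells (0.67 ± 0.11, edgeR adjusted p = 0.00626), with no overlap. The low-STRA8 and deficient libraries overlapped for Helq, which rose by 1.12 ± 0.17 in high-STRA8 over deficient cells (adjusted p = 0.00165). The Exo1 call between low- and high-STRA8 cells (0.37 ± 0.13, adjusted p = 0.0459) was lost without deficient replicate 3, low-STRA8 replicate 2 or either high-STRA8 library. Blm, the helicase that dissolves recombination intermediates, rose by 0.59 ± 0.12 over deficient cells (adjusted p = 0.00622, or 0.0575 without high-STRA8 replicate 2).

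The subunits of RPA were among the most abundant of the 40 transcripts. Rpa2 measured 202, 225 and 221 TPM in deficient, 315 and 272 TPM in low-STRA8 and 316 and 298 TPM in high-STRA8 libraries. Both heterozygous groups lay above the deficient libraries and overlapped each other, with a rise of 0.63 ± 0.10 in low-STRA8 (edgeR adjusted p = 0.00445) and 0.59 ± 0.10 in high-STRA8 cells (adjusted p = 0.00231) over deficient cells. Rpa1 rose less, by 0.37 ± 0.09 in high-STRA8 over deficient cells (adjusted p = 0.0111), a call lost without either high-STRA8 library. Rpa3 did not pass the threshold in any comparison.

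Ddb2, which recognizes ultraviolet lesions for nucleotide excision repair and recruits a CUL4 ubiquitin ligase, had the largest rise of the 39 genes. It measured 33.5, 37.2 and 30.4 TPM in deficient, 84.9 and 57.4 TPM in low-STRA8 and 171 and 197 TPM in high-STRA8 libraries. The 3 groups did not overlap, and Ddb2 rose by 1.36 ± 0.16 (log2) from deficient to low-STRA8 cells (edgeR adjusted p = 0.00193), by 1.31 ± 0.18 from low- to high-STRA8 cells (adjusted p = 0.00139) and by 2.67 ± 0.16 from deficient to high-STRA8 cells (adjusted p = 5.52e-05). Msh6, a mismatch recognition gene, measured 109, 123 and 98.8 TPM, 120.0 and 116 TPM, and 129 and 119 TPM, and its libraries overlapped in every comparison (0.26 ± 0.10 between high-STRA8 and deficient cells, adjusted p = 0.0807).

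Across the alternatives of normalization, test, filter, length correction, pairing and left-out library, 16 of the 24 genes that rose between deficient and high-STRA8 cells were called in every one, namely Atm, Atr, Chek1, Clspn, Nbn, Mdc1, Brca1, Bard1, Rad51b, Rad51c, Fancc, Brip1, Exo1, Helq, Rpa2 and Ddb2. Between low- and high-STRA8 cells 14 of 23 were, and between deficient and low-STRA8 cells 5 of 11 that rose (Chek1, Rad51c, Exo1, Rpa2 and Ddb2) and 2 of 4 that fell (Rad50 and Slx4). How many of all genes called held under every alternative was not counted, so that these counts are not a result about repair genes. Without high-STRA8 replicate 2, fewer repair genes were called higher than in low-STRA8 cells, as were fewer of all genes tested. Without low-STRA8 replicate 1 or either high-STRA8 library, fewer of both were called higher in low-STRA8 than in deficient cells. Without deficient replicate 1 that last count fell from 11 to 7, and that of all genes from 1267 to 1012.

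The low-STRA8 libraries also differed from the others by transcript length, over all genes. When the 12510 genes were split into 5 classes of effective length, the median log2 fold change of low-STRA8 against deficient cells went from 0.27 in the class of the shortest to -0.38 in the class of the longest, and that of high- against low-STRA8 cells from -0.34 to 0.42. Between high-STRA8 and deficient cells the medians stayed between -0.10 and 0.04. Of the 39 repair genes, 15 were in the longest class, of 4385 bases or more, Rad50, Trp53bp1, Fancm and Slx4 among them. These 15 held all 4 genes that were lower in low-STRA8 than in deficient cells and 14 of the 23 that were higher in high- than in low-STRA8 cells. How many of all 2502 genes in that class were called was not counted, so that these counts are not a result about repair genes. The cause of the trend with length was not tested.

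When the trend with length was removed from each library, Slx4 and Rad50 were still called in both comparisons. Fancm fell short of the threshold between low-STRA8 and deficient cells (log2 fold change -0.30, adjusted p = 0.0778), and Trp53bp1 changed sign in both comparisons without passing it (0.32 and -0.22). Exo1 also changed sign between high- and low-STRA8 cells (-0.20, adjusted p = 0.294), and Atm became higher in low-STRA8 than in deficient cells (0.64, adjusted p = 0.035). The counts with this correction were 24 higher and 1 lower between high-STRA8 and deficient cells, 21 and 1 between high- and low-STRA8 cells, and 12 and 2 between low-STRA8 and deficient cells.

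**Figure D3:**
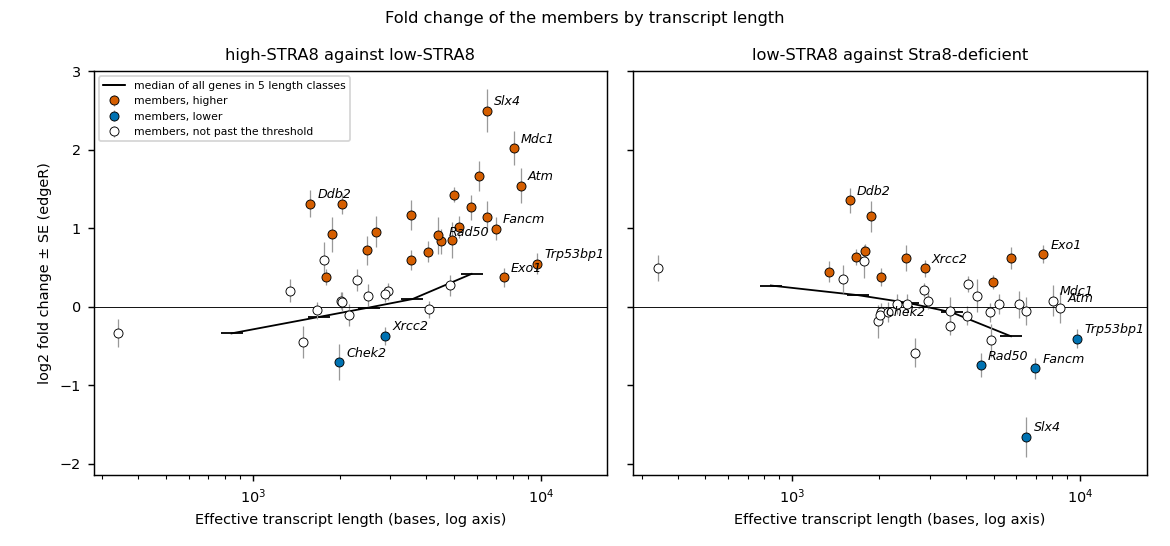
Log2 fold change with its SE, from edgeR, against effective transcript length in bases on a log axis, for the 39 genes in high- against low-STRA8 cells and in low-STRA8 against deficient cells. The black line joins the medians of all genes in 5 length classes, which run from -0.34 to 0.42 on the left and from 0.27 to -0.38 on the right, and Slx4 is the highest point on the left and the lowest on the right.

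To place these genes beside the rest of DNA repair, 7 lists of 85 other genes were described in the same way. Of the 85, 35 rose between deficient and high-STRA8 cells (41.2%, beside 18.8% of all genes tested) and 14 fell (16.5%, beside 18.2%), with a median log2 fold change of 0.26 beside -0.02. Of 20 other homologous recombination genes 14 rose and none fell, led by Rad51ap1 (31.3 ± 5.35 TPM, SD, n = 3, in deficient and 119 ± 4.35 TPM, n = 2, in high-STRA8 libraries), and by Rmi2 of the BLM complex (4.81 ± 0.33 and 14.2 ± 0.179 TPM). Of 5 other mismatch repair genes 4 rose, led by Pms2 (1.35 ± 0.10 on the log2 scale) and Msh3 (0.86 ± 0.14). Of 12 genes of the 9-1-1 clamp, fork protection and CDK control 6 rose and 1 fell, led by the phosphatase Cdc25a (1.79 ± 0.13) and the clamp subunit paralog Hus1b (1.75 ± 0.17).

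Among 11 other Fanconi and crosslink genes 4 rose, led by the ubiquitin-conjugating enzyme Ube2t (1.40 ± 0.10), and 3 fell, led by Faap20 (-1.26 ± 0.19). Among 10 genes of non-homologous end joining 2 rose and 2 fell, the latter being the gap-filling polymerases Polm (-1.62 ± 0.22) and Poll (-0.75 ± 0.17). Among 14 genes of base excision and single-strand break repair 4 rose and 4 fell, with Neil3 (2.43 ± 0.50, from 0.489 to 2.52 TPM) and Nthl1 (-1.18 ± 0.20), both DNA glycosylases, changing most. Among 13 genes of nucleotide excision repair 1 rose, 4 fell and 8 had no call. The falls were led by the damage verification factor Xpa (-1.44 ± 0.28) and the lesion sensor Xpc (-0.78 ± 0.12). The rise of Ddb2 thus stood beside 1 rise and 4 falls among these 13 genes, whose median log2 fold change was -0.21. Over all genes tested 18.8% rose and 18.2% fell between deficient and high-STRA8 cells. In high-STRA8 cells 30 of the 85 genes (35.3%, beside 21.3% of all genes tested) were called above and 9 (10.6%, beside 18.3%) below their low-STRA8 level, and low-STRA8 cells had 20 higher (23.5%, beside 10.1%) and 10 lower (11.8%, beside 13.9%) than deficient cells.

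STRA8 is the transcription factor that germ cells need to initiate meiosis, and FLAG ChIP-seq asked whether it bound the promoters of these genes. A gene was called STRA8-bound when a summit lay within 1 kb of a transcription start site (TSS) in at least 2 of 3 FLAG/FLAG libraries and in no wild-type library. The FLAG/FLAG libraries had 5687, 3299 and 2035 summits, of which 4454, 2881 and 1676 lay at promoters, and the wild-type libraries 798, 45 and 164, of which 99, 9 and 16 did. Of the 40 genes 23, 21 and 11 had a promoter summit in FLAG/FLAG replicates 1, 2 and 3, and none had one in a wild-type library. The third replicate, with the fewest summits, was made with another library kit than the first and second, so that kit and replicate cannot be told apart there.

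By this definition 18 of the 40 genes were STRA8-bound, which is 46.2% of the 39 tested for expression beside 22.4% of all genes tested. Of the 40, 11 had a summit in all 3 libraries (27.5%), 7 in 2 (17.5%), and 8 in 1 and 14 in none, beside 12.1%, 10.7%, 15.8% and 61.4% of all genes tested. Bound were Atr, Chek1 and Clspn, 5 of the 6 break signaling genes (Nbn, Mdc1, Trp53bp1, Rnf8 and Rnf168), Brca1, Bard1 and Rad51c, Fancc and Fancl, Brip1, Blm and Helq, and Ddb2 and Msh6. The 14 genes without a summit included Atm, Atrip, Chek2, 6 of the 8 Fanconi core genes, Fancd2, Fanci and Slx4. Requiring a score of at least 10 left 15 genes, and requiring all 3 libraries left 11. Without FLAG/FLAG replicate 1 or 2 the count of 18 was also 11, and without replicate 3 it was 18. These counts required a summit in both remaining libraries. Replicate 3 had a summit only at the 11 genes with one in all 3 libraries. The counts therefore follow from that and do not show dependence on replicate 1 or 2.

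Scores are -log10 of the authors' peak p. Mdc1 had the highest scores of the 40 genes, 98.5, 76.8 and 63.4 in FLAG/FLAG replicates 1, 2 and 3, followed by Clspn with 60.7, 39.4 and 41.7 and by Atr with 56.3, 54.1 and 37.1. Ddb2 scored 32.7, 32.4 and 20.2, Bard1 33.8, 14.7 and 20.4, and Brca1 28.1, 30.3 and 11.7. At the other end Chek1 scored 9.32 and 6.88 in 2 libraries and Rnf168 10.04 and 7.59. The summit at Brca1 also lay within 1 kb of the TSS of Nbr1, that of Rad51c within 1 kb of Tex14 and that of Helq within 1 kb of Mrps18c, so that these summits cannot be assigned to 1 gene.

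**Figure D4:**
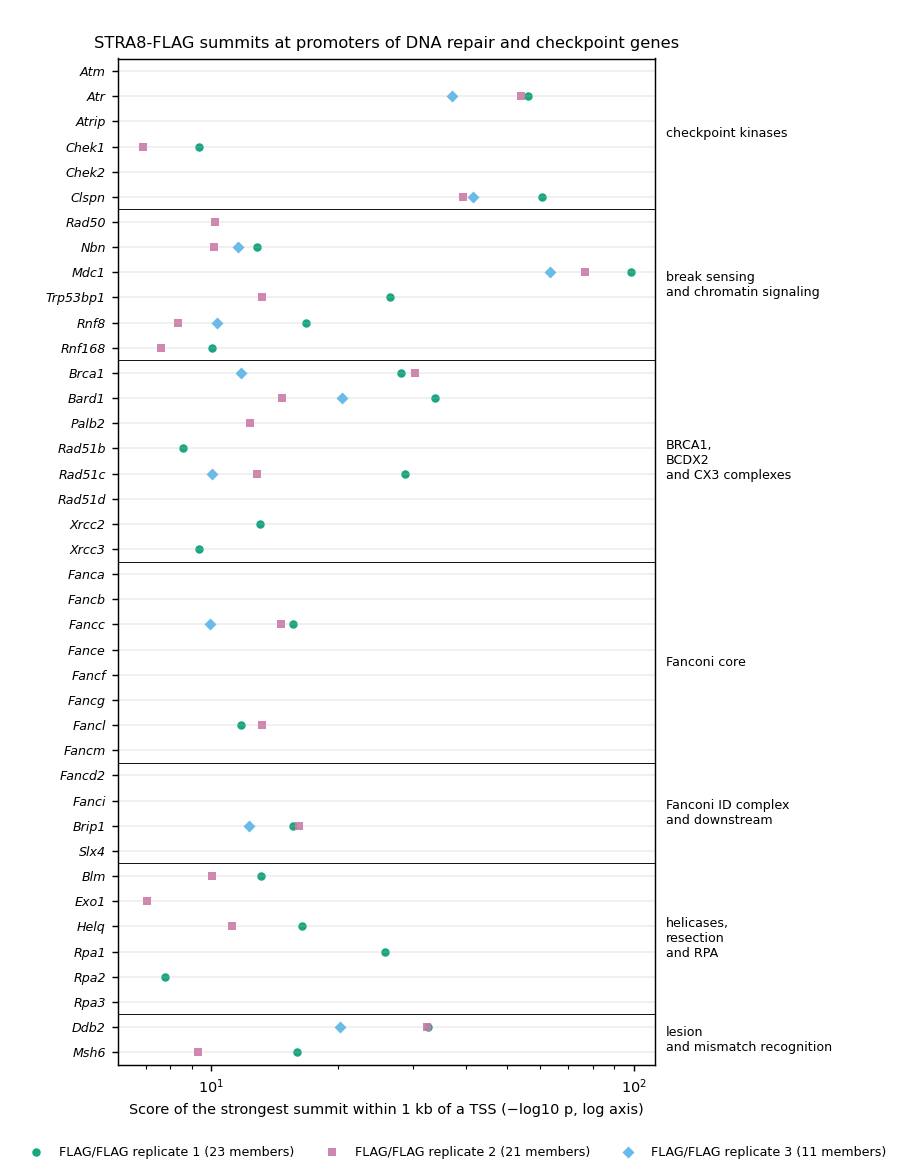
Score (-log10 p, log axis) of the strongest summit within 1 kb of a TSS for each of the 40 genes in the 3 FLAG/FLAG ChIP libraries. A row without a symbol had no summit. The points of Mdc1, Clspn and Atr lie farthest to the right, and only Fancc and Fancl have symbols in the Fanconi core.

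The sequences below show the base at the strongest summit, as the only capital, for the 8 genes with the highest lowest score over 3 FLAG/FLAG libraries. Each sequence shows the summit of 1 library, replicate 2 for Brip1 and Brca1 and replicate 1 for the others. They were read from the mm10 assembly on the strand of the gene, 100 bases where no annotated exon overlaps and 30 bases where one does.
Mdc1, chr17:35841655-35841684, plus strand: tggcgcgcgcgcgcgGattcagtcggtgag
Clspn, chr4:126557256-126557355, plus strand: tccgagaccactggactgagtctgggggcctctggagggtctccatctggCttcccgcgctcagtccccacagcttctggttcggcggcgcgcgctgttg
Atr, chr9:95857726-95857755, plus strand: tgggcgaccacgggcTggagctggcgtcca
Ddb2, chr2:91237006-91237105, minus strand: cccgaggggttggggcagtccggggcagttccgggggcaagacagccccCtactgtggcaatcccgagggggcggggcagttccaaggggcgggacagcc
Bard1, chr1:71103058-71103087, minus strand: ggcactttggtttcCgcggtccgccctaca
Brip1, chr11:86201327-86201356, minus strand: ggggcggtgctcgtCttccggtcccgccaa
Brca1, chr11:101552261-101552290, minus strand: tttaccgaaactggAgacttccatggcagg
Nbn, chr4:15958134-15958163, plus strand: gggagttctttcccgGgagcggccgcgggg
The Mdc1 summit lay 155 bases downstream of a TSS, that of Clspn 371, Atr 35, Bard1 73 and Nbn 224 bases downstream, and those of Ddb2, Brip1 and Brca1 lay upstream, at positions -74, -149 and -397 from a TSS. Other libraries had their summits elsewhere at some genes, at -84 and -91 for Brca1 (replicates 1 and 3) and at 88 and -18 for Ddb2 (replicates 2 and 3). None of the 8 windows shown holds CNCCTCAG, also when widened to 100 bases. CNCCTCAG is the motif the study gave for STRA8 summits. At Ddb2 a match lay 2 bases from the summit of replicate 3, which is not the one shown.

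The motif was learned from promoters bound in these same libraries, so that its counts here are a description. In 100 bases around the summits of the 40 genes it was found at 1 of 24, 2 of 21 and 1 of 11 summits in FLAG/FLAG replicates 1, 2 and 3, beside 10.6%, 14.1% and 15.6% of all promoter summits of those libraries. In the 2 kb around a TSS, on either strand, 17 of the 39 genes tested (43.6%) had at least 1 match, beside 46.2% of all genes tested. Of the 18 bound genes 6 had a match (33.3%), beside 61.7% of all bound genes tested. The match nearest to a summit is given below for these 6, with the motif in capitals and read on its own strand, and these were chosen after the counts were seen.
Clspn, chr4:126557122-126557151, minus strand: gagcctaaactCACCTCAGaacccacctcg
Trp53bp1, chr2:121271468-121271497, minus strand: ggcgggcacttCACCTCAGccacctatcat
Rnf8, chr17:29615063-29615092, minus strand: cctctcgccctCACCTCAGtcccagcctcc
Fancl, chr11:26387305-26387334, minus strand: cgacagaacgaCCCCTCAGggtacctgagc
Ddb2, chr2:91236987-91237016, plus strand: ccccgccccgtCCCCTCAGggctgtcccgc
Msh6, chr17:87975658-87975687, minus strand: atccgccccgcCCCCTCAGgccgcggatcg
The Ddb2 match lay 2 bases from the summit of FLAG/FLAG replicate 3 and was 1 of 5 matches in the 2 kb, the most of the 40 genes. The Fancl match lay 14 and the Rnf8 match 50 bases from a summit, and those of Clspn, Msh6 and Trp53bp1 lay 120, 130 and 378 bases away.

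Binding and expression were then set side by side. Of the 18 bound genes 15 (83.3%) rose between deficient and high-STRA8 cells and none fell, beside 47.6% of all bound genes tested that rose. The bound genes without a call were Trp53bp1, Rnf8 and Msh6, so that a summit in all 3 libraries at Rnf8, with scores of 16.8, 8.33 and 10.3, stood beside a log2 fold change of -0.03 ± 0.10. Of the 21 genes not bound 9 rose (42.9%), beside 10.5% of all other genes tested, and Chek2 fell. Bound repair genes had a median log2 fold change of 1.10 and the others of 0.37, beside 0.34 and -0.12 over all genes.

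The 9 genes that rose without being called bound were Atm, Palb2, Rad51b, Rad51d, Fanci, Slx4, Exo1, Rpa1 and Rpa2. Of these, Palb2, Rad51b, Exo1, Rpa1 and Rpa2 had a summit in 1 FLAG/FLAG library, with scores of 12.3, 8.55, 7.05, 25.7 and 7.76. Atm, Rad51d, Fanci and Slx4 had none in any library. The related kinases Atm, without a listed promoter summit, and Atr, with one in all 3 libraries, rose by 1.53 ± 0.19 and 1.09 ± 0.18 (log2), and the difference between these rises was not tested.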

How the data were processed

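Expression was measured in 7 RNA-seq libraries and STRA8 binding in 6 FLAG ChIP-seq libraries, and samples were grouped by the submitters' labels. Per the submitters' notes, the authors ran kallisto 0.43.0 to obtain estimated counts and TPM per transcript, and deposited gene-level TPM rescaled over protein-coding genes. They also deposited a signal per gene, the counts scaled by DESeq2 1.18.1. ChIP reads were aligned to mm10 with Bowtie 1.2.0, handled with SAMtools 1.3.1, and peaks were called per sample with MACS2 2.1.1.20160309, whose deposited summit lists give a score that is −log10 p. The 6 input libraries were not used here.

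Transcripts were matched to GENCODE M21 (75554 of 75737) and summed by gene, and a join was accepted when it gave the deposited TPM within 0.2% or 0.003 TPM. Of 12545 genes over 1 TPM in at least 1 library, 12510 were joined. They held 90.2% to 93.0% of the estimated counts of a library, and 35 were left out. The test was run on rounded counts in edgeR 4.0.16 under R 4.3.3 (TMM, quasi-likelihood, 1 fit over all 7 libraries, Benjamini-Hochberg adjustment over the 12510 genes, two-sided). It was also run on simulated counts with the same dispersion for all genes and groups and no trend with length. These libraries differ from that setting, so that the simulation gives no error rate for them. The 40 genes, the lists and the tests were chosen with earlier results of these data known. Values in each library are given, for each role group, for at most 3 genes of smallest adjusted p between high-STRA8 and deficient cells, for genes that fell there and for the gene with the smallest adjusted p in each other comparison. Of each other repair list, up to 2 called genes with the largest change are named. Other genes were named after their values were seen. With 2 or 3 libraries per group and 4 residual degrees of freedom, small differences are not detectable. Strand, near-identical copies and overlapping genes were resolved only as far as kallisto resolves them.

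Alternatives were DESeq2 1.42.0, limma 3.58.1 on log2(TPM + 1), log2(TPM + 0.1) and the log2 of the deposited signal plus 1, RLE factors, other filters, length offsets, pairing and leaving out each library. Same-numbered libraries did not deviate together (r of their replicate differences across genes -0.20, -0.04 and -0.13), so the replicate numbers were not taken to pair libraries. Summits and CNCCTCAG, searched on both strands, were handled with Python 3.11.15, pandas 2.3.3 and pysam 0.24.0, and figures drawn with matplotlib 3.10.9.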

Additional observations from a re-analysis of the deposited data

How the results depend on the processing

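The counts of genes higher in high-STRA8 than in deficient cells ranged from 21 to 24 over the alternatives that kept all libraries, and from 16 to 24 when 1 library was left out. Genes lower there numbered 1, or 0 without high-STRA8 replicate 1 (range 0 to 1). Genes higher in high- than in low-STRA8 cells ranged from 15 to 25 and lower ones from 0 to 2 over left-out libraries. The 2 lower genes became 0 with limma on TPM at either pseudocount, and 1 without a filter on low values, with only the 2 groups compared, with either length offset, with the replicate block, with the crossed replicate block and with limma on the authors' signal. Genes higher in low-STRA8 than in deficient cells, 11 in the main test, became 5 with limma on TPM at either pseudocount, 7 with only the 2 groups compared and 7 with the replicate block, and 6 to 10 over left-out libraries. Genes lower there, 4 in the main test, became 7 with limma on TPM at either pseudocount, 2 with the length trend offset, and 3 to 5 over left-out libraries. On TPM the median of all genes moved to 0.11 (pseudocount 1) and 0.14 (pseudocount 0.1) between high- and low-STRA8 cells and to -0.15 and -0.18 between low-STRA8 and deficient cells, so that these counts are relative to a moved median. Counts over all genes tested moved with the settings too. With the replicate block, for example, genes higher in high-STRA8 than in deficient cells went from 2356 to 1846. Changes in the counts above are therefore not a result about repair genes. The STRA8-bound count of 18 became 11 when all 3 FLAG/FLAG libraries were required. It ranged from 11 to 18 over left-out FLAG/FLAG libraries, where a summit in both remaining libraries was required.

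With the replicate block, 21, 21 and 7 genes were higher and 1, 1 and 3 lower in the 3 comparisons, in the order high-STRA8 against deficient, high- against low-STRA8 and low-STRA8 against deficient. With the low-STRA8 numbers crossed, an alternative chosen after seeing the data, they were 21, 24 and 10 higher and 1, 1 and 4 lower. The fit on the authors' signal was also chosen after seeing the data. Log2 fold changes that changed sign all belonged to the comparisons with low-STRA8 cells. Of these only the values of Trp53bp1 and Exo1 were calls in the main test, and only Atm with the length trend offset was a call in the alternative. With the length trend offset they were, between high- and low-STRA8 cells Trp53bp1 -0.22, Fanca -0.0093, Exo1 -0.20, Rpa2 0.078 and Rpa3 0.11, and between low-STRA8 and deficient cells Atm 0.64, Atr 0.38, Trp53bp1 0.32, Palb2 -0.0062, Fanca 0.17, Blm 0.044 and Helq 0.043. With limma on log2(TPM + 1) they were, between high- and low-STRA8 cells Fance 0.027, Rpa2 0.068 and Msh6 0.065, and between low-STRA8 and deficient cells Atrip -0.14, Mdc1 -0.082, Brca1 -0.13, Bard1 -0.14, Fancg -0.12 and Fanci -0.041. With limma on log2(TPM + 0.1) they were, between high- and low-STRA8 cells Fance 0.028, Rpa2 0.068 and Msh6 0.065, and between low-STRA8 and deficient cells Atrip -0.14, Mdc1 -0.084, Brca1 -0.14, Bard1 -0.15, Fancg -0.12 and Fanci -0.042. With limma on the authors' signal they were, between high- and low-STRA8 cells Rad51d -0.014, and between low-STRA8 and deficient cells Atm 0.033 and Atr 0.0040. With the replicate block they were, between low-STRA8 and deficient cells Mdc1 -0.037, Brca1 -0.12, Bard1 -0.072, Palb2 -0.056 and Fanci -0.011. With the crossed replicate block they were, between low-STRA8 and deficient cells Mdc1 -0.041, Brca1 -0.12, Bard1 -0.072, Palb2 -0.056 and Fanci -0.020. Over left-out libraries the log2 fold changes that crossed 0 ranged, between high- and low-STRA8 cells, as Rnf8 -0.013 to 0.17, Fance -0.28 to 0.091, Rpa2 -0.10 to 0.016 and Msh6 -0.088 to 0.015, and between low-STRA8 and deficient cells, as Atm -0.26 to 0.20, Atr -0.22 to 0.037, Atrip -0.069 to 0.12, Chek2 -0.42 to 0.010, Nbn -0.15 to 0.0092, Mdc1 -0.047 to 0.32, Brca1 -0.11 to 0.19, Bard1 -0.059 to 0.12, Palb2 -0.043 to 0.12, Fanca -0.26 to 0.090, Fance -0.27 to 0.10, Fanci -0.17 to 0.40 and Helq -0.18 to 0.092. The cause of these changes was not tested. With 2 libraries in a group, and 1 where a library was left out, the lone library was assumed to vary like the other groups, and changes well under 1.5-fold are at the limit of what these libraries resolve.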
